A study of Mus musculus with 6 samples.

Results

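The genes of the cytosolic ribosomal proteins, the protein parts of the ribosomes that work outside mitochondria, were compared between RAW 264.7 cells and RAW 264.7 cells carrying an APOBEC1 knockout. Members were taken by name: symbols that start with Rpl or Rps and a digit, with Rplp0, Rplp1, Rplp2 and Rpsa, and without pseudogene names (-ps) and the Rps6k kinases. This gave 89 of the 24848 listed gene symbols, 54 for the large subunit and 35 for the small subunit. RAW 264.7 is an established mouse macrophage-like cell line, and APOBEC1 is a cytidine deaminase that edits RNA. Poly(A) RNA was sequenced from 3 plates of cells with the WT genotype and 3 plates of cells with the APOBEC1 KO genotype. Both groups grew in the same high-glucose medium with serum and received no treatment that the labels record. The labels do not give the lesion, the way the knockout was made or the number of clones, so effects of the genotype cannot be told apart from other differences of the lines. The p-values measure the spread between plates.

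Each ribosome joins a large and a small subunit, and each subunit holds ribosomal RNA and a set of proteins that are, with few exceptions, each encoded by a single working gene. Many of these mRNAs begin with a run of pyrimidines called a 5′ terminal oligopyrimidine (TOP) run, through which the kinase complex mTORC1 and the RNA-binding protein Larp1 control their translation and stability. Rodent genomes also hold many processed pseudogenes copied from these mRNAs, and reads from such copies can be hard to place. Besides building ribosomes, some of the proteins have other roles: Rpl5 and Rpl11 bind the p53 regulator Mdm2, and Rps6 is the classical substrate of S6 kinase.

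The libraries held 50493447, 67392191 and 58408190 reads in WT and 70411383, 59768682 and 66647726 in KO (replicates 1, 2 and 3). Values are CPM, a gene's reads scaled by the total of its library. Of 10 macrophage markers, 8 reached 1 CPM in every library, and the list summed to 3240 to 3514 CPM in WT and 3561 to 4064 CPM in KO, with Mrc1 low in both groups and Marco at or near 0 in both. Of these, Lyz2 and Spi1 rose and Adgre1, Fcgr1 and Mrc1 fell. The markers of fibroblasts, T cells, B cells and epithelial cells summed to at most 0.368 CPM by type. The neutrophil list summed to 0.856 to 1.07 CPM in WT and 3.12 to 4.55 CPM in KO, all of it from S100a8; the part of these differences in the results was not tested. Apobec1 mRNA itself was present in all libraries, at 400 ± 29.3 CPM (WT) and 347 ± 12.5 CPM (KO) (SD, n = 3; log2 fold change -0.20, adjusted p = 0.0663). Without the lesion, that level does not check the labels. Reads of Rn45s, the precursor of ribosomal RNA, varied widely, from 0.381% to 2.75% of a WT library and from 0.542% to 1.40% of a KO library.

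Ribosomal protein mRNA made up less of the KO libraries than of the WT libraries, in both subunits. Large subunit members summed to 5.52%, 4.88% and 5.03% of WT reads (replicates 1, 2 and 3, an order kept throughout) and to 4.31%, 4.42% and 3.84% in KO. Small subunit members summed to 3.69%, 3.28% and 3.42% in WT and to 2.77%, 2.84% and 2.40% in KO. Every KO library lay below every WT library in both sums, with WT replicate 1 the highest and KO replicate 3 the lowest. Within WT both sums were lower the more reads a library held. Within KO the library with the most reads, replicate 1, lay between the others. Together the members took 8.61% ± 0.55 of reads in WT and 6.86% ± 0.54 in KO (SD, n = 3), which is 20.3% less. The sum was 18.6% lower for the large subunit and 22.9% lower for the small subunit. The large subunit sum was 1.495, 1.489 and 1.472 times the small subunit sum in WT and 1.556, 1.557 and 1.599 times in KO, so the ratio did not overlap between groups either. The large sum holds Rpl7a, Rpl35 and Rpl12 of chromosome 2, a chromosome described below, and the small sum holds Rps21. How far these genes move the ratio was not tested. The sums are shares of a library, so fewer transcripts of these genes and more of others cannot be told apart, nor can, in bulk RNA, fewer cells with high levels and less of these mRNAs per cell.

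**Figure D1:**
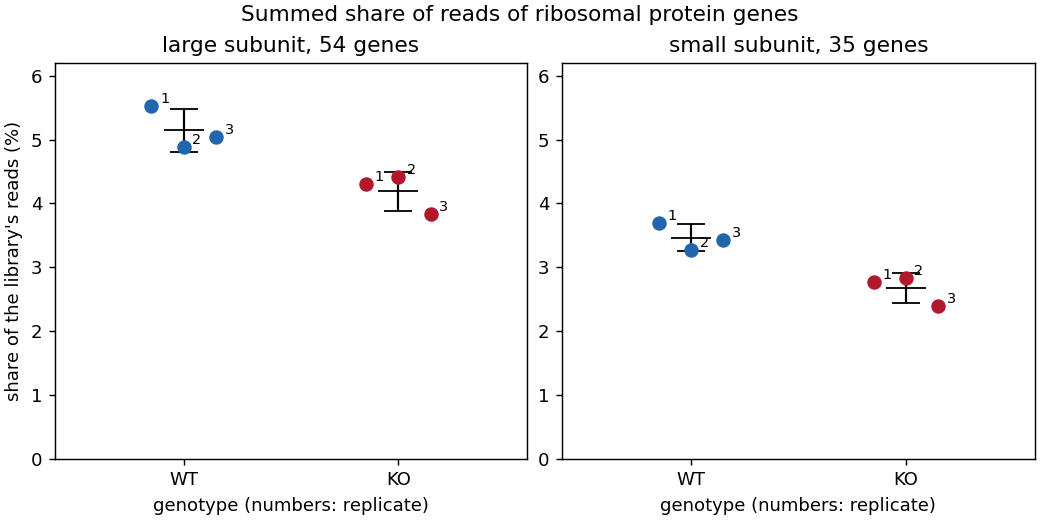
Summed share of each library's reads (vertical axis, percent) for the 54 large subunit and the 35 small subunit genes, by genotype. Points are libraries with their replicate number, and the bars give the mean and SD of 3; every KO point lies below every WT point, and KO replicate 3 is lowest at 3.84% and 2.40%.

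Gene by gene, 78 members were abundant enough to test, meaning that 3 or more of the 6 libraries reached 1 CPM. A gene was called when its limma p-value on log2(CPM + 0.5), adjusted over all 10614 tested genes, was under 0.05, and log2 fold changes are KO minus WT. In the large subunit 29 of 47 tested members fell and 0 rose. In the small subunit 24 of 31 fell and 1, Rps27l, rose. Over all tested genes 16.9% fell and 13.5% rose. The median log2 fold change was -0.30 for the large subunit and -0.36 for the small subunit, beside -0.02 over all tested genes. At an unadjusted p under 0.05 limma had 1 large subunit member higher, edgeR on the recovered reads called 0 higher and DESeq2 called 1, Rpl7a. Over all tested genes edgeR called 16.2% lower and 15.4% higher, and DESeq2 17.8% and 17.6%. The share of all tested genes at an unadjusted p under 0.05 was not counted. All KO libraries lay below all WT libraries for 36 large and 27 small subunit members, against 25.4% of all tested genes. The reverse held for Rps27l alone among tested members, against 20.9%. KO replicate 3 was the lowest of the 6 libraries for 74 of the 78 members, against 12.6% of all tested genes, and WT replicate 1 the highest for 68, against 22.4%. With Rn45s taken out and the libraries rescaled, 29 large and 24 small subunit members were lower, beside 1980 genes in all. The medians were then -0.32 and -0.37. The part that these libraries or the number of reads play in the fall was not tested, nor was any other bearing of the Rn45s share. The medians without KO replicate 3 were -0.26 and -0.29 and those without WT replicate 1 were -0.25 and -0.32.

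The number of calls moved with the libraries and settings. Members called lower in the large and small subunit numbered 15 and 11 without KO replicate 1 (9.52% of all tested genes lower), 14 and 14 without KO replicate 3 (12.9%), and 18 and 13 without WT replicate 3 (12.1%). They numbered 14 and 11 with TMM scaling (14.8%), 17 and 16 with edgeR, 17 and 14 with no filter on low values (11.9%), and 18 and 16 after each library's trend over gene length and GC was taken out (20.6%). Under all 20 alternatives 14 members stayed lower, 7 of each subunit, against 5.93% of all tested genes: Rpl5, Rpl9, Rpl13a, Rpl17, Rpl22, Rpl32 and Rplp0, and Rps3, Rps10, Rps12, Rps14, Rps15a, Rps18 and Rps25.

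**Figure D2:**
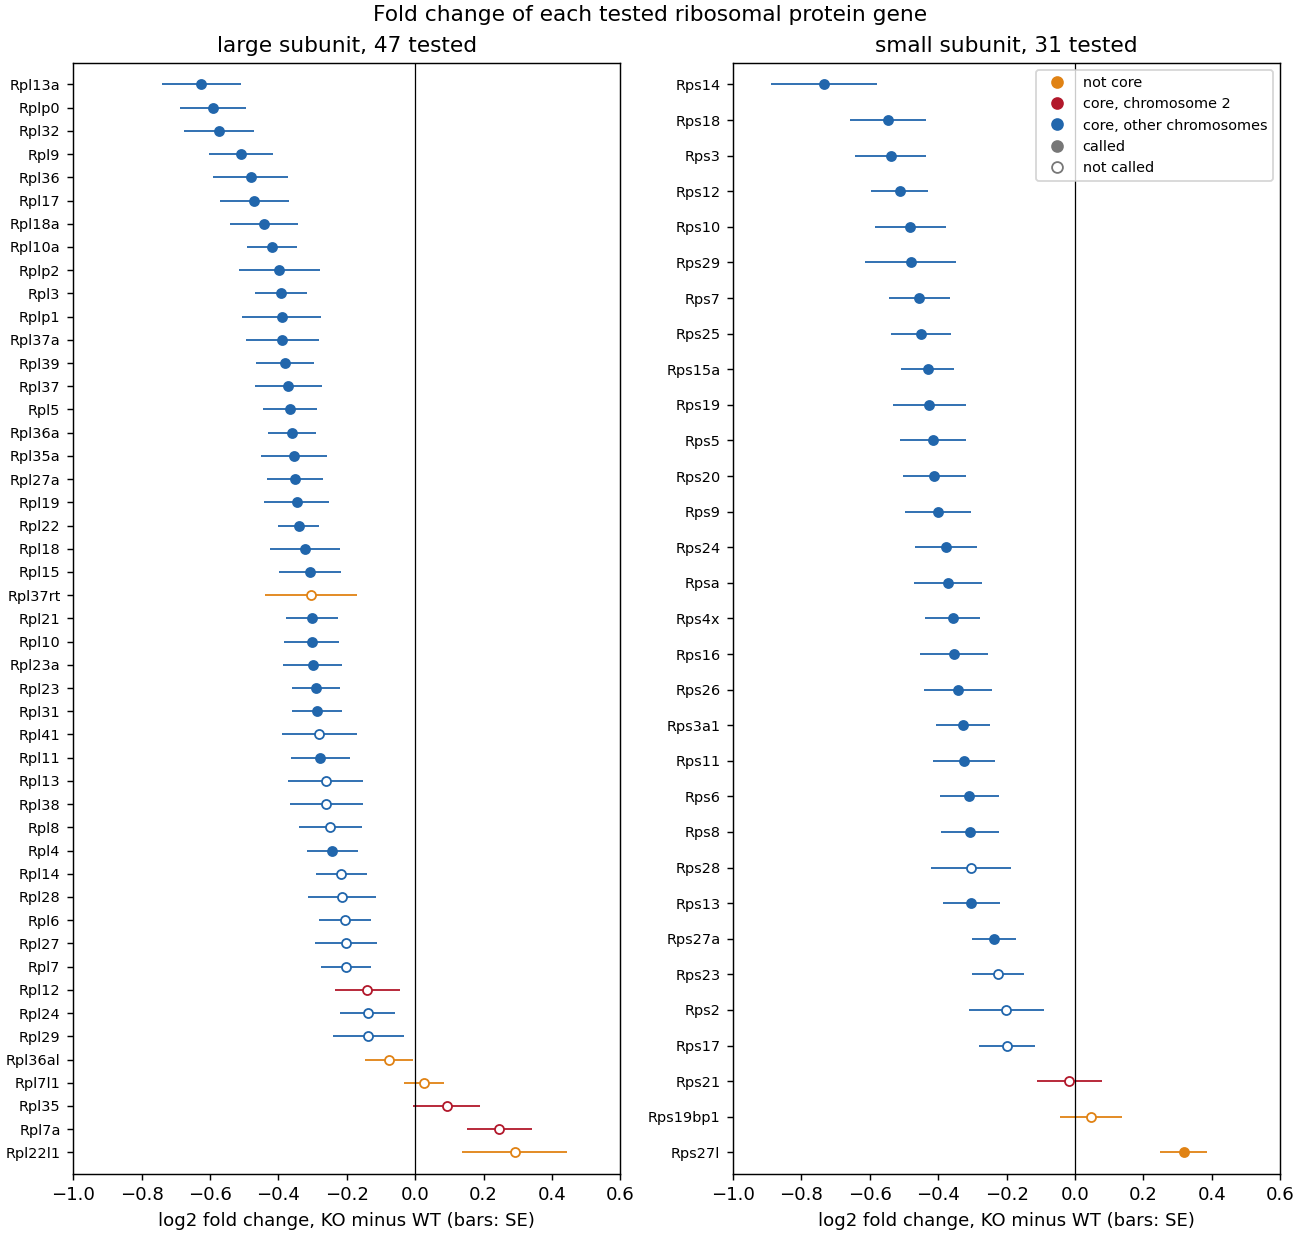
Log2 fold change of each tested member (horizontal axis, KO minus WT, bars show the SE), large subunit on the left and small subunit on the right, ordered by value. Filled points passed the test; nearly all lie left of 0, from Rps14 at -0.73 to Rps27l at 0.32.

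The largest fall of all belonged to Rps14, a protein of the platform of the small subunit, whose haploinsufficiency underlies the human 5q- syndrome. Rps14 (chromosome 18, 60747098 to 60778546, + strand, mm10) measured 1357, 1184 and 1432 CPM in WT and 986, 800 and 633 CPM in KO. It fell by 39.1% (log2 fold change -0.73 ± 0.15 SE, adjusted p = 0.0093). The 3 KO libraries were far apart here, with replicate 1 closest to WT, yet none reached the lowest WT value.

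Other small subunit proteins with large falls sit at the head and beak of the subunit or along the mRNA path. Rps3, at the mRNA entry channel (chromosome 7, 99477896 to 99483738, - strand), measured 2372, 2127 and 2158 CPM in WT and 1675, 1611 and 1314 CPM in KO. Rps18, in the head (chromosome 17, 33951999 to 33956001, - strand), measured 891, 791 and 753 CPM in WT and 614, 586 and 473 CPM in KO. Both fell, by 30.9% and 31.3% (log2 fold changes -0.54 ± 0.10 and -0.55 ± 0.11 SE, adjusted p = 0.00652 and 0.00799), with the highest KO library under the lowest WT library. Rps12 measured 1146, 1016 and 1026 CPM in WT and 734, 811 and 690 CPM in KO (log2 fold change -0.51 ± 0.08 SE, adjusted p = 0.00301). Rps10 measured 771, 639 and 671 CPM in WT and 499, 551 and 441 CPM in KO (log2 fold change -0.48 ± 0.10 SE, adjusted p = 0.0101). Of the exon bases of Rps10, 54.3% overlap other annotated genes, and whether the counting used strand is not given, so its level may hold reads of its neighbours.

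Small subunit members with roles of their own also fell. Rps6, the S6 kinase substrate, measured 1415, 1228 and 1381 CPM in WT and 1118, 1138 and 992 CPM in KO (log2 fold change -0.31 ± 0.09 SE, adjusted p = 0.029). Rpsa, also known as a laminin receptor, had the highest mean CPM of the small subunit. It measured 2779, 2330 and 2637 CPM in WT and 1994, 2184 and 1808 CPM in KO, and fell by 22.7% (adjusted p = 0.0255). Rps19, the gene most often mutated in Diamond-Blackfan anaemia, fell from 739 ± 85.1 to 550 ± 59.5 CPM (SD, n = 3; adjusted p = 0.0195). Rps25, used by viral internal ribosome entry sites, fell from 1244 ± 73.8 to 912 ± 84.8 CPM (adjusted p = 0.00663), with 48.7% of its exon bases overlapping Ccdc84 or Trappc4 on the other strand. Rps20, Rps26, the X-linked Rps4x, and Rps3a1 also fell, with log2 fold changes of -0.41, -0.34, -0.36 and -0.33. Rps27a, made as a fusion with ubiquitin, had the smallest called fall of the subunit, from 1269 ± 18.1 to 1077 ± 49.7 CPM (log2 fold change -0.24 ± 0.06 SE, adjusted p = 0.0273). Without KO replicate 1, the calls of Rps4x, Rps6, Rps19, Rps20, Rps26, Rps27a and Rpsa were lost, and without KO replicate 3 those of Rps6, Rps19, Rps26, Rps27a and Rpsa. Without WT replicate 3, Rps3a1, Rps4x, Rps6, Rps26, Rps27a and Rpsa lost theirs, as did Rps26 and Rps27a without KO replicate 2 and Rps27a without WT replicate 2.

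In the large subunit the stalk proteins Rplp0, Rplp1 and Rplp2, which recruit elongation factors, all fell. Rplp0 (chromosome 5, 115559467 to 115563727, + strand), the base of the stalk, measured 2203, 1926 and 2123 CPM in WT and 1386, 1535 and 1238 CPM in KO, a fall of 33.5% (log2 fold change -0.59 ± 0.10 SE, adjusted p = 0.00304). Rplp1 measured 1593, 1273 and 1355 CPM in WT and 1026, 1222 and 973 CPM in KO, the highest KO library lying just under the lowest WT library. Rplp2 measured 672, 528 and 537 CPM in WT and 431, 495 and 391 CPM in KO. Their log2 fold changes were -0.39 ± 0.11 and -0.40 ± 0.12 SE (adjusted p = 0.0353 and 0.0384). Both of these calls were lost without WT replicate 1, WT replicate 3, KO replicate 1 or KO replicate 3. Whether Rplp0 fell more than these partners was not tested.

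The other largest falls of the large subunit were Rpl13a, Rpl32, Rpl9 and Rpl36. Rpl13a (chromosome 7, 45125558 to 45128761, - strand), which also takes part in translational silencing in interferon-treated macrophages, measured 1320, 1196 and 1066 CPM in WT and 863, 796 and 667 CPM in KO (log2 fold change -0.63 ± 0.12 SE, adjusted p = 0.00524). Overlapping gene models cover 54.9% of its exon bases. Rpl32 (chromosome 6, 115805505 to 115808747, - strand) measured 2290, 2033 and 1955 CPM in WT and 1511, 1480 and 1232 CPM in KO (log2 fold change -0.57 ± 0.10 SE, adjusted p = 0.00448). Rpl9 measured 1342, 1356 and 1366 CPM in WT and 1046, 998 and 825 CPM in KO (log2 fold change -0.51 ± 0.09 SE, adjusted p = 0.00532), and its WT libraries nearly coincided. Rpl36 fell from 497 ± 64.4 to 355 ± 35 CPM (SD, n = 3; adjusted p = 0.0127).

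Rpl5 and Rpl11, which carry the 5S ribosomal RNA and bind Mdm2, both fell. Rpl5 measured 1611, 1554 and 1583 CPM in WT and 1329, 1242 and 1123 CPM in KO (log2 fold change -0.37 ± 0.08 SE, adjusted p = 0.0101), and 46.6% of its exon bases overlap Fam69a on the other strand. Rpl11 measured 1033, 930 and 966 CPM in WT and 869, 827 and 726 CPM in KO (log2 fold change -0.28 ± 0.08 SE, adjusted p = 0.0417). Neither gene's groups overlapped, but Rpl11 kept its call only when WT replicate 2 was the library left out.

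Rpl3, Rpl10, Rpl4, Rpl39 and Rpl10a fell as well. Rpl3, next to the peptidyl transferase centre, fell from 1800 ± 88.7 to 1371 ± 87.1 CPM (SD, n = 3; adjusted p = 0.00663). Rpl10, which joins late and tests the finished subunit, fell from 1435 ± 96 to 1163 ± 77.9 CPM (adjusted p = 0.0256). Rpl4, which lines the tunnel and had the highest mean CPM of all members, measured 4472, 4128 and 4170 CPM in WT and 3607, 3683 and 3499 CPM in KO (log2 fold change -0.24 ± 0.07 SE, adjusted p = 0.0419). The call of Rpl4 was lost when any single library was left out, and that of Rpl10 without WT replicate 3, KO replicate 1 or KO replicate 3. Rpl39, also of the tunnel, fell from 388 ± 21.7 to 299 ± 28.5 CPM (adjusted p = 0.0118). Rpl10a, the mobile L1 stalk protein, fell from 849 ± 47.9 to 635 ± 39 CPM (adjusted p = 0.0043). Rpl24 and Rpl38 did not pass the test. Rpl24, which forms a bridge to the small subunit, had a log2 fold change of -0.14 ± 0.08 SE (adjusted p = 0.234). Of its exon bases 71.5% overlap Gm28037 on the same strand. Rpl38, needed for translation of some Hox mRNAs, had a log2 fold change of -0.26 ± 0.11 SE (adjusted p = 0.105) with groups that did not overlap.

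**Figure D3:**
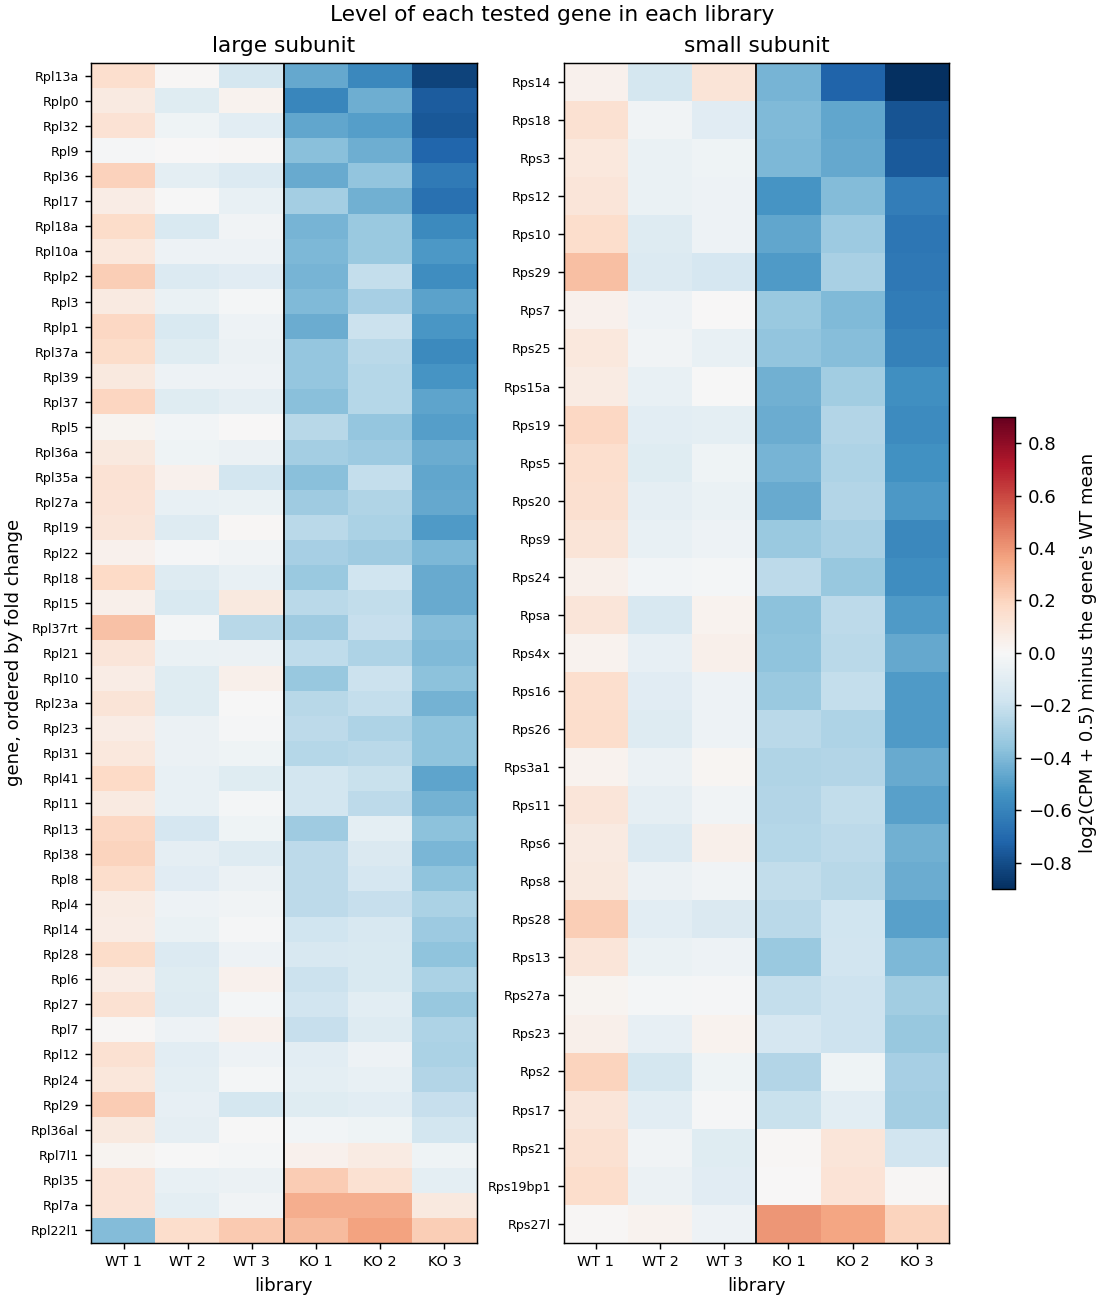
Level of each tested member in each of the 6 libraries, as log2(CPM + 0.5) minus the gene's WT mean (colour bar), large subunit on the left and small subunit on the right. Blue marks values below the WT mean; the KO 3 column is the darkest in most rows, and Rpl7a, Rpl22l1 and Rps27l are red in KO.

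Setting aside 12 members that are paralogues, retrogene copies or, as with Rps19bp1, a binding protein with a matching name left 77 core members, 72 of them tested; this division was made after the values were seen. All 53 falls were among the core members. Of the 12 others 6 were tested, with log2 fold changes from -0.30 (Rpl37rt, adjusted p = 0.126) to 0.32 (Rps27l); 1 of them was called, and the difference from the core members was not tested. Rps27l, a paralogue of Rps27 described as a p53 target, measured 121, 122 and 116 CPM in WT and 158, 154 and 138 CPM in KO. It rose by 24.9% (log2 fold change 0.32 ± 0.07 SE, adjusted p = 0.0108), with every KO library above every WT library. The adjusted p was 0.0509 without WT replicate 3 and 0.0551 without KO replicate 1.

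Rpl22 and its paralogue Rpl22l1 differed in the sign of their estimates, a difference that was not tested. Rpl22, an RNA-binding protein known to repress Rpl22l1, measured 553, 533 and 527 CPM in WT and 437, 430 and 407 CPM in KO (log2 fold change -0.34 ± 0.06 SE, adjusted p = 0.00419). Rpl22l1 measured 41.2, 60.3 and 63.6 CPM in WT and 66.1, 69.5 and 63.2 CPM in KO (log2 fold change 0.29 ± 0.15 SE, adjusted p = 0.189). For Rpl22l1 the groups overlapped, and WT replicate 1 stood apart at the low end. Without that library its log2 fold change was 0.10 (adjusted p = 0.283). It passed the test only once the length and GC trend was removed (log2 fold change 0.37, adjusted p = 0.0127), also with the replicate block.

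Rpl36a fell from 507 ± 28.1 to 395 ± 20.9 CPM (adjusted p = 0.00673), while its retrogene Rpl36al, which makes a nearly identical protein, was at 176 ± 10.5 and 167 ± 8.9 CPM (log2 fold change -0.08 ± 0.07 SE, adjusted p = 0.458). Rpl7 measured 2379 ± 69.1 (WT) and 2070 ± 116 CPM (KO), with groups that did not overlap, but missed the threshold (log2 fold change -0.20 ± 0.07 SE, adjusted p = 0.0723), and Rpl7l1 stood at 221 ± 3.36 and 225 ± 8.99 CPM (log2 fold change 0.03, adjusted p = 0.778). Rps19bp1 stood at 21.2 ± 2.12 and 21.8 ± 1.01 CPM. The muscle form Rpl3l was nearly silent, at 0.356, 0.312 and 0.257 CPM in WT and 0.568, 0.435 and 0.48 CPM in KO, under the limit for testing; with no filter on low values it was called higher (adjusted p = 0.0294). The testis form Rpl39l was listed at 0 in WT and KO replicate 2 and reached at most 0.015 CPM elsewhere, about a single read.

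Only 4 of the tested core members lie on chromosome 2, named here after their values were seen, and limma called none of them. Rpl7a, of the outer surface of the large subunit (26910764 to 26913318, + strand), measured 1873, 1615 and 1683 CPM in WT and 2155, 2155 and 1827 CPM in KO (log2 fold change 0.25 ± 0.10 SE, adjusted p = 0.0887). Rpl35, near the tunnel exit, measured 966, 846 and 854 CPM in WT and 1037, 976 and 836 CPM in KO (log2 fold change 0.09 ± 0.10 SE). Rpl12, at the base of the stalk, measured 2226, 1896 and 1956 CPM in WT and 1895, 1959 and 1660 CPM in KO (log2 fold change -0.14 ± 0.10 SE). Rps21 stood at 513 ± 45.7 and 508 ± 49.6 CPM (log2 fold change -0.02). All 4 overlapped between groups, and at an unadjusted p under 0.05 Rpl7a was higher; edgeR called 0 of the 4 and DESeq2 called Rpl7a. The 68 tested core members on other chromosomes all had a negative log2 fold change, with a median of -0.35, and 53 of them fell. Their medians were -0.33 for the large and -0.38 for the small subunit. Of these 68, 67 stayed negative with the length and GC trend removed. The 856 tested genes of chromosome 2 had a median of 0.34, with 499 higher and 44 lower. On the other autosomes and X the medians of all tested genes lay between -0.16 (chromosome 6) and 0.00. How far the level of the chromosome bears on these 4 genes was not tested.

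**Figure D4:**
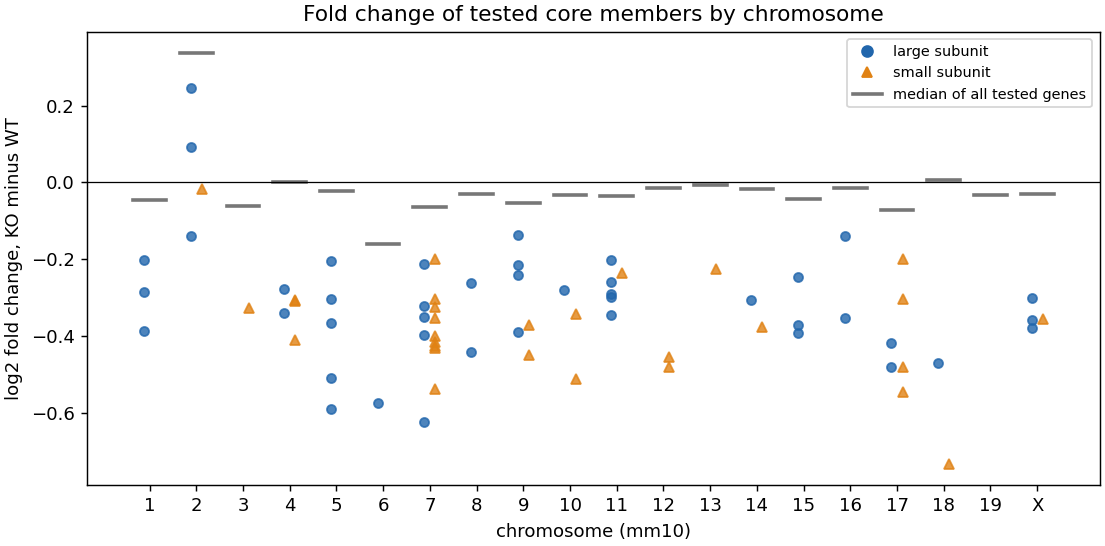
Log2 fold change (vertical axis, KO minus WT) of each tested core member by chromosome (horizontal axis), circles for the large and triangles for the small subunit, with grey lines for the median of all tested genes of that chromosome. Only chromosome 2 has members above 0, and its grey line, at 0.34, is the highest.

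Levels can be compared between genes once divided by transcript length, here as CPM per kb of the principal annotated transcript. Large subunit core members that were tested ran from 89.3 to 4048 CPM per kb in WT with a median of 1172, and small subunit core members from 172 to 2379 with a median of 1449. In KO the medians were 972 and 1095. Rpl32 was highest in both groups, at 4048 ± 339 CPM per kb in WT and 2723 in KO. In WT it was followed by Rplp1 at 2820 ± 333 and Rpl4 at 2768 ± 122 (SD, n = 3), which do not differ beyond their spread. Rps14 ranked 7 in WT and 22 in KO among the 78. The lowest of the tested core members was Rpl29, a heparin-binding protein, at 89.3 ± 13.1 CPM per kb in WT. Rps15a and Rps20 were also low, at 172 and 186 CPM per kb, and their principal annotated transcripts are 5130 and 3706 bases long, far above the core median of 801 bases. Across the 72 tested core members the log2 fold change had a Pearson r of -0.08 with transcript length, 0.04 with GC content and -0.07 with the WT level; genes share their libraries and are not replicates, and these are descriptions.

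**Figure D5:**
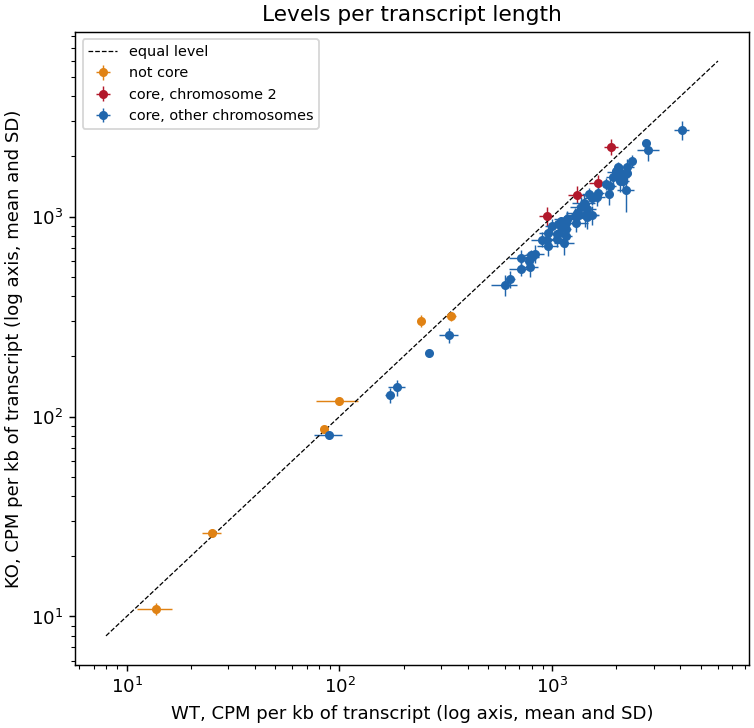
Level of each tested member in WT (horizontal axis) and KO (vertical axis) in CPM per kb of transcript, both log axes, with the mean and SD of 3 libraries. Most core members lie below the dashed line of equal level, Rpl32 is at the upper end (4048 and 2723), and the 4 core members on chromosome 2 lie on or near the line.

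Of the 89 members, 8 were listed at 0 in all 6 libraries. For the large subunit these were Rpl26, Rpl34, Rpl10l and Rpl32l, and for the small subunit Rps15, Rps27, Rps27rt and Rps4l. Rpl10l is a retrogene used in male germ cells. Rpl26, Rpl34, Rps15 and Rps27 are core members that every cell uses, so a value of 0 is read here only as the listed value. Rpl30, another core member, was listed at 0.376, 0.341 and 0.377 CPM in WT and 0.27, 0.402 and 0.45 CPM in KO, far under the other core members, of which the next lowest, Rpl29, was at 63.4 ± 9.32 CPM in WT.

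To see how much of each transcript could be told apart from copies, each stretch of 125 bases, the read length, was looked up in all annotated transcripts. Rps27 shared 98.2% of its stretches with other genes, chiefly its retrogene Rps27rt, which is also listed at 0. Rpl26 shared 22.1%, Rpl34 19.1% and Rps15 4.26%. The 72 core members at 1 CPM or more shared a median of 35.9% (0 to 91.3%), so several abundant members shared more than Rpl26, Rpl34 and Rps15 did. Rpl10, for one, shared 91.3% and Rpl10a 86.6%. The sharing gene had a row of its own in the table for 3 of the 4 core members at 0 and for 18 of the 72. For those 3, Rpl26, Rpl34 and Rps27, the sharing rows Gm15772, Rpl34-ps1 and Rps27rt were also listed at 0. Whether sharing with other genes decides the values of 0 was not tested. Levels of members with close copies are uncertain by the reads that the counting gave to either copy.

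The start of the gene is where the TOP run lies. RefSeq promoters (GRCm38.p6) matched 68 of the 89 members, 57 of them core. A TOP run, taken as a C at the annotated start with at least 4 pyrimidines directly after it, stood at the start of 13 of the 57 core genes (22.8%) and of 3.01% of all genes with a promoter. The exact letters CTTTC stood at the start of 3.51% of core genes and 0.17% of all genes, and CTTTT at 0 of the 57 and 0.19% of all; both are forms of the TOP run. The count depends on the annotated start being the true start. Of the starts below, 10 bases before and 20 bases from the annotated start are shown for 6 of the 7 members with a run that fell (Rps15a is not shown) and for both such members on chromosome 2, with the run in capitals and on the strand of the gene.
Rpl15, chr14:18270967-18270996, - strand: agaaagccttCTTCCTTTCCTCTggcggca
Rpl35a, chr16:33056472-33056501, + strand: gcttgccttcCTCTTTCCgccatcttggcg
Rplp2, chr7:141447641-141447670, + strand: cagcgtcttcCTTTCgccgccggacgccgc
Rps6, chr4:86857348-86857377, - strand: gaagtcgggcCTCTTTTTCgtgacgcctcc
Rps10, chr17:27635225-27635254, - strand: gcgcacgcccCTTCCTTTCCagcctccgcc
Rps18, chr17:33955646-33955675, - strand: cacttccgctCTCTCTTCCacaggaggcct
Rpl35, chr2:39005112-39005141, - strand: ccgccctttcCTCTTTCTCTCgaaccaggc
Rps21, chr2:180257369-180257398, + strand: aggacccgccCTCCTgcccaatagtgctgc

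Members that fell were found with and without a run at the annotated start. Rpl35, whose run spans 11 bases, had a log2 fold change of 0.09, and Rpl15, whose run spans 13 bases, had -0.31. The 12 tested members with a run had a median log2 fold change of -0.31 and 7 fell. The 41 tested members with a promoter and no such run had a median of -0.35 and 31 fell. A start annotated off the true start would miss a run, so these sets do not separate mRNAs with and without a TOP run. In the 300 bases around the start, CCGGAAG, the core of the ETS motif, was found on either strand in 42.1% of core genes and 9.93% of all genes. AAGATGG, the core of the YY1 motif, was found in 15.8% and 7.28%. These are matches of letters in a window and no evidence of binding.

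The ribosomal proteins Rack1 and Fau, outside the naming rule, also fell. Rack1, a scaffold on the head of the small subunit, measured 3239, 2685 and 2952 CPM in WT and 2119, 2234 and 1784 CPM in KO, and fell by 30.9% (log2 fold change -0.53 ± 0.11 SE, adjusted p = 0.00828). Fau, made as a fusion of a ubiquitin-like protein with Rps30, fell from 660 ± 84.2 to 490 ± 54.7 CPM (adjusted p = 0.0244), a call lost without WT replicate 3, KO replicate 1 or KO replicate 3.

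Among 16 translation factors and other genes with TOP mRNAs, 5 fell and 0 rose, against 16.9% and 13.5% of all tested genes. Their median log2 fold change was -0.20, and at an unadjusted p under 0.05 limma had 0 of them higher. EdgeR called 3 lower and 0 higher, and DESeq2 5 lower and 0 higher. Eef1a1, which brings aminoacyl-tRNA to the ribosome and far exceeds every ribosomal protein gene in CPM, measured 18207, 18164 and 19336 CPM in WT and 14757, 14476 and 12644 CPM in KO (log2 fold change -0.41 ± 0.10 SE, adjusted p = 0.018). Its sign turned under quantile normalization (log2 fold change 0.31, adjusted p = 0.119), and its call was lost without WT replicate 3 or KO replicate 1. Eef1b2, its exchange factor, fell from 1410 ± 38.3 to 1091 ± 90.9 CPM (adjusted p = 0.00943), and the initiation factors Eif4b and Eif3h fell with log2 fold changes of -0.31 and -0.34, the call of Eif3h being lost without WT replicate 3, KO replicate 2 or KO replicate 3.

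Of 18 genes of mTORC1 and TOP mRNA control, 1 fell and 2 rose, against 16.9% and 13.5% of all tested genes. The list's shares were under those of all tested genes, and its median was -0.01. The S6 kinase gene Rps6kb2 fell from 13.6 ± 1.2 to 10.9 ± 0.653 CPM (log2 fold change -0.29 ± 0.09 SE, adjusted p = 0.0474). That call was lost in 11 of 20 alternatives (adjusted p up to 0.221), among them edgeR, which called 0 of the 18 lower, and leaving out any library but WT replicate 3. The 2 that rose encode inhibitors of mTORC1 signalling that respond to stress. Sesn2 measured 17.6, 12.9 and 13.6 CPM in WT and 31.5, 36 and 39 CPM in KO (log2 fold change 1.25 ± 0.13 SE, adjusted p = 0.000345), and Ddit4 rose from 6 ± 0.309 to 8.93 ± 0.692 CPM (log2 fold change 0.53 ± 0.09 SE, adjusted p = 0.00379). Their KO libraries all lay above their WT libraries. Larp1 stood at 432 ± 15.7 and 483 ± 39.8 CPM and was not called.

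Of the 6 tested genes that link the 5S particle to p53, 2 rose and 0 fell, against 13.5% and 16.9% of all tested genes. At an unadjusted p under 0.05 limma had 4 higher and 0 lower, but the share of all tested genes there was not counted. EdgeR called 2 higher and 0 lower, against 15.4% and 16.2% of all tested genes. DESeq2 called 4 higher and 0 lower, against 17.6% and 17.8%. Mdm2, the ubiquitin ligase of p53, measured 53.4, 68.2 and 58.4 CPM in WT and 102, 98.3 and 114 CPM in KO (log2 fold change 0.80 ± 0.10 SE, adjusted p = 0.000846). Rpf2, which loads the 5S particle onto the growing large subunit, rose from 51.5 ± 5.26 to 68 ± 2.67 CPM (adjusted p = 0.0105; 0.054 without KO replicate 1). Of 6 dedicated chaperones and carriers of ribosomal proteins, limma called 0, against 13.5% of all tested genes higher and 16.9% lower. EdgeR called 1 higher and DESeq2 2, against 15.4% and 17.6% of all tested genes. At an unadjusted limma p under 0.05, where no such share was counted, 2 were higher. The most abundant of the 6, Nap1l1, had a log2 fold change of -0.12 and Heatr3, which carries Rpl5, 0.15, and limma called neither. Heatr3 was called higher with TMM scaling, after removal of the length and GC trend, and by DESeq2, while Nap1l1 was called lower without WT replicate 1.

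Non-coding host genes of small nucleolar RNAs, whose spliced transcripts also start with a TOP run, were a further list of 6. Of these 4 fell, against 16.9% of all tested genes, and the median log2 fold change was -0.56. By limma, edgeR or DESeq2, or at an unadjusted limma p under 0.05, 0 rose, against 13.5% of all tested genes called by limma. Gas5 measured 170, 244 and 172 CPM in WT and 110, 85.4 and 114 CPM in KO (log2 fold change -0.91 ± 0.16 SE, adjusted p = 0.0044). Snhg8 measured 21.6, 20.4 and 17.5 CPM in WT and 10.1, 9.8 and 9.63 CPM in KO (log2 fold change -0.97 ± 0.09 SE, adjusted p = 0.000239). Snhg12 and Snhg3 fell with log2 fold changes of -0.60 and -0.50; Snhg12 lost its call without WT replicate 1 or 2 or KO replicate 1 or 2, and Snhg3 without KO replicate 1 or 2. WT replicate 2 was the highest library for 5 of the 6 genes, all but Snhg8, where it was WT replicate 1.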

How the data were processed

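Tools used by the authors included Trim Galore and STAR 2.6.0a with build mm10, per the submitters' processing notes, and duplicates were removed, per the file headers, which can lower short, abundant genes most. For the counter, its annotation and strand: not given in the sources used here. CPM values were deposited by the authors per gene symbol; all values were whole reads (100% within 0.01 of a read), so reads were recovered. Members and lists were chosen with earlier results of these data known.

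Genes with at least 1 CPM in 3 of 6 libraries entered limma 3.58.1 (lmFit, eBayes with trend; R 4.3.3) as log2(CPM + 0.5), with Benjamini-Hochberg adjustment over 10614 genes. On simulated counts for this comparison (10569 genes) the fit recovered 81.8% of 1.5-fold and 100% of 2-fold changes, with 16 false calls. Changes under 1.5-fold, such as the subunit medians, were not simulated. Named genes were the 5 largest called changes in each direction and 3 most abundant per subunit, members of known role or listed at 0, and up to 4 called per companion list (the 2 most abundant where none was called). Rpl15, Rpl17, Rpl29, Rpl30, Rpl35a, Rps15a, Larp1 and the chromosome 2 members outside this rule (Rpl7a, Rpl35, Rps21, Rpl12) were chosen after their values were seen. Annotation was GENCODE M21 (mm10) and promoters came from RefSeq. Alternatives changed the pseudocount, filter, scaling, limma trend, length and GC trend or tool (edgeR 4.0.16, DESeq2 1.42.0), added the replicate number as a block, or left out each library.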

Additional observations from a re-analysis of the deposited data

How the results depend on the processing

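Every tested core member off chromosome 2 kept a negative log2 fold change under all 20 alternatives, except Rpl29 with the length and GC trend removed, with or without the replicate block (0.023, not called). The counts of calls moved more. Large subunit members called lower numbered 29 in the limma fit, 17 with no filter, 14 with TMM scaling, 17 with edgeR and 18 with the length and GC trend removed. The small subunit had 24, and 14 with no filter and 11 with TMM scaling. Leaving out 1 library gave 14 to 28 large and 11 to 24 small members lower, 0 to 1 large and 0 to 1 small members higher, and 1918 to 3527 called genes in all, beside 3230. Large subunit members called higher numbered 1 with no filter (Rpl3l) and 1 with quantile normalization and with DESeq2 (Rpl7a). With the length and GC trend removed, 3 large and 2 small members were higher, the large median was -0.17, and 5121 genes were called, 2167 lower and 2954 higher, beside 1794 lower and 1436 higher. Without a library, Rpl7a was called higher when KO replicate 3 or WT replicate 1 was left out. The cause of these moves was not tested.

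With the replicate block 17 large and 14 small members were lower, and 2009 of 10614 tested genes were called, 1118 lower and 891 higher. With the block and the length and GC trend removed 7 of 47 large and 8 of 31 small members were lower, beside 1614 of 10500 tested genes. The large subunit share was then close to that of all tested genes. In that setting 1 large member (Rpl22l1) and 1 small member (Rps27l) were higher, beside 2252 genes, and the large median was -0.17. Same-numbered libraries deviated from their group means with correlations of -0.25, -0.64 and -0.17. Pairs with different numbers ran from -0.44 (WT replicate 1, KO replicate 3) to 0.61 (WT replicate 2, KO replicate 3). Deviations within a group of 3 balance out, so these values cannot show whether plates were paired. Signs turned for Eef1a1 with quantile normalization (0.31), for Rpl36al with the length and GC trend removed (0.076 with and without the block), for Rpl7l1 with quantile normalization (-0.068) and rescaling to non-members (-0.0019), and for Rps19bp1, which ran from -0.0050 to 0.13 when a library was left out, without WT replicate 3. None of these passed the test then.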
